A study of Mus musculus with 6 samples.

Results

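The activity-dependent immediate early genes described here are Fos, Fosb, Junb, Egr1, Egr3, Arc, Npas4, Nr4a1, Ier2 and Dusp1. They are well-known members of the early response, were taken by symbol from the count tables and make up 10 of the 35976 genes listed. All 10 were among the 18277 genes that passed the low-count filter and were tested. Immediate early genes are switched on within minutes of calcium entry or growth factor signalling, before any new protein is made, through factors such as CREB, SRF and MEF2 that are already bound near their promoters. Most encode transcription factors that go on to control later genes, and others act directly at synapses or shut the upstream kinases off again. In sensory neurons they are widely used as a sign of recent firing, injury or growth factor exposure, although glia and fibroblasts also induce most of them.

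RNA-seq was carried out on cultures of dorsal root ganglion (DRG) neurons from all lumbar levels of adult C57BL/6 mice of both sexes. The ganglia were dissociated with enzymes and plated in serum-containing medium, and the cells were given vehicle or HC-HA/PTX3 from 24 h after plating. HC-HA/PTX3 is a hyaluronan complex purified from human amniotic membrane, and it was applied at 15 µg/mL for 24 h. There were 3 vehicle cultures and 3 treated cultures, numbered 1 to 3 in each group. The paper calls the samples of a group biological replicates, but the labels do not say that they came from separate animals, so the p-values measure the spread between these samples, which may be partly technical. Because all cells of a dish were lysed together, fewer cells of a type and less RNA per cell cannot be told apart. The vehicle libraries 1, 2 and 3 held 42516054, 42617496 and 54117547 counts, and the treated libraries 37998071, 37434266 and 38420247, fewer in each pair.

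The label of the cultures, DRG neurons, was compared with marker genes. All 8 neuronal markers were detected in every culture, with summed levels of 6307, 5146 and 5663 CPM (scaled by TMM) in vehicle replicates 1, 2 and 3, and of 6724, 5659 and 6585 CPM in the treated replicates. The neuronal tubulin Tubb3 was the most abundant of them, with a mean of 1294 CPM over the 6 cultures, and none of the 8 was called different between the groups. Markers of other cells were present as well, and no marker of any list was at 0. The 7 satellite glia markers, led by Apoe, summed to 2020, 1156 and 484 CPM in the vehicle replicates and to 1892, 1255 and 527 CPM in the treated replicates, so the glial signal was lowest in the cultures numbered 3 of both groups. The 7 Schwann cell markers, led by Pmp22, gave 1399, 1008 and 807 CPM with vehicle and 1279, 912 and 792 CPM after treatment. Endothelial and mural cell markers, led by Cdh5 and Rgs5, had sums of 170 to 212 CPM and of 264 to 481 CPM, and macrophage markers, led by Cd68, of 25.3 to 36.9 CPM, with none called. Values for markers of fibroblasts and dividing cells are given with the SRF target genes.

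**Figure D1:**
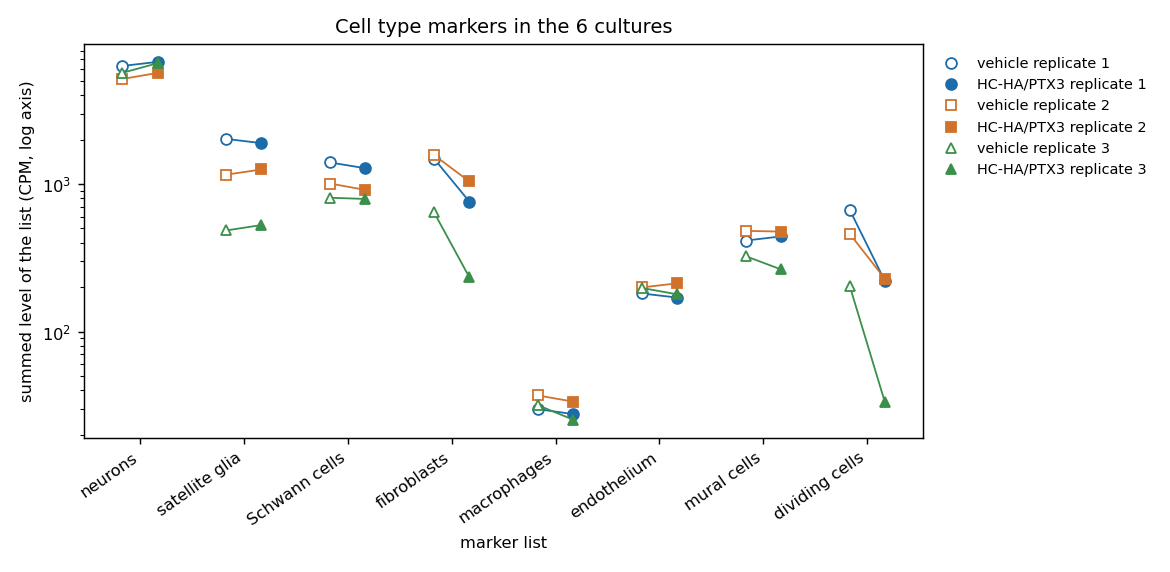
Summed level of each marker list in CPM on a log axis, with open symbols for vehicle, filled symbols for HC-HA/PTX3 and lines joining same-numbered cultures. Neuronal sums lie between 5146 and 6724 CPM, while the satellite glia sum falls to 484 and 527 CPM in the cultures numbered 3.

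The 10 genes spanned a wide range of levels. Levels per kilobase of exon allow a rough comparison of genes. The length joins all annotated exons of a gene, so it can exceed that of a transcript and may differ from the models used for counting. The vehicle means were 37.0 ± 15.7 CPM per kb for Dusp1, 31.8 ± 3.39 for Egr1 and 30.5 ± 9.66 for Junb (SD, n = 3 each). These 3 genes did not differ from each other beyond their spread. A second tier held Ier2 at 13.2 ± 1.48, Fos at 11.7 ± 4.15 and Nr4a1 at 10.5 ± 3.11 CPM per kb, again within each other's spread, and its highest vehicle value, 16.3 CPM per kb for Fos in replicate 2, lay below the lowest of the first tier, that of Junb in replicate 1. Egr3 followed at 5.50 ± 1.19 and Arc at 4.02 ± 2.70 CPM per kb. Fosb at 0.640 ± 0.361 and Npas4 at 0.225 ± 0.0706 CPM per kb were the lowest (SD, n = 3 each). Transcripts of all 10 genes were therefore present in the vehicle cultures, which held serum, and in the treated ones, those of Npas4 from only 25 to 69 reads per culture.

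**Figure D2:**
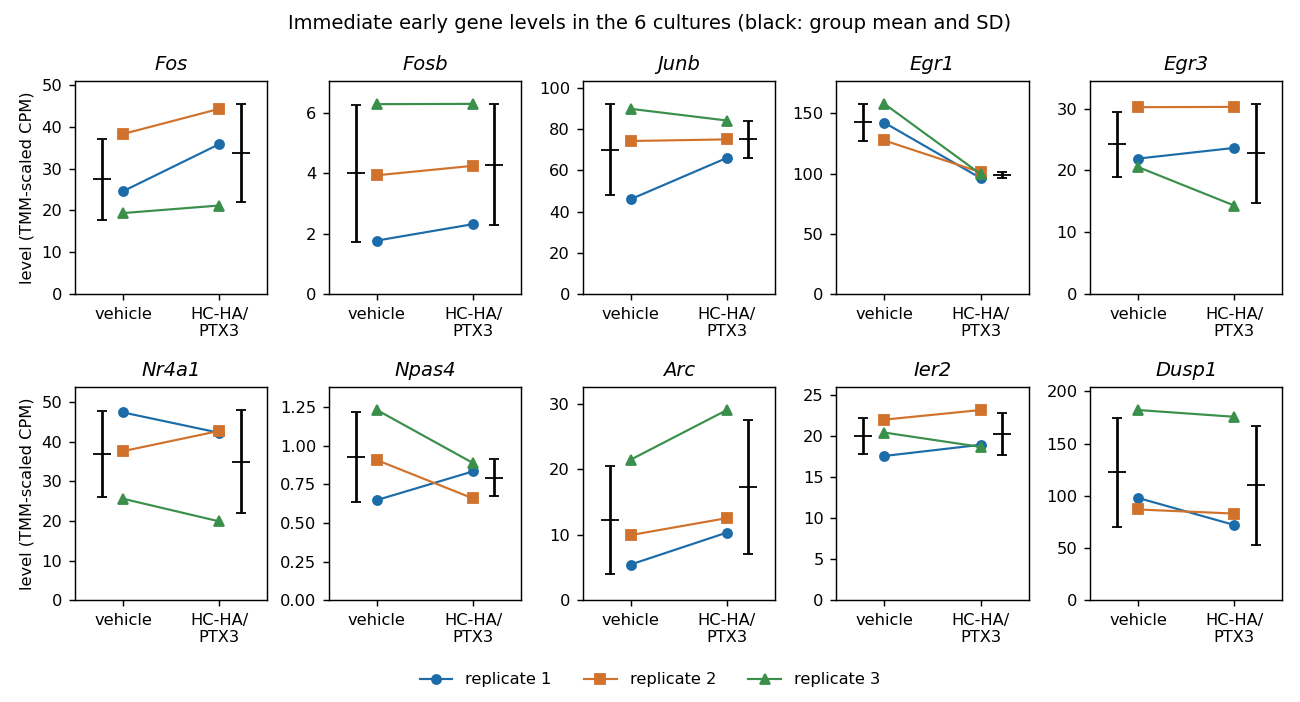
Level of each of the 10 genes in TMM-scaled CPM, 1 panel per gene with an axis that starts at 0, lines joining the same-numbered vehicle and HC-HA/PTX3 cultures, and black bars for the group mean and SD (n = 3). Egr1 is lower in all 3 treated cultures, at 96.2 to 101 CPM against 127 to 158 CPM, and in most other panels the replicates lie further apart than the treatments.

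Genes were compared with edgeR's quasi-likelihood test with the replicate number as a block, so that the change was estimated within same-numbered pairs, with Benjamini-Hochberg adjustment of p over all tested genes. Called genes had an adjusted p-value below 0.05 and a change of more than 0.5 on the log2 scale in either direction. Fold changes are given as log2 of HC-HA/PTX3 over vehicle. Of the 10 immediate early genes 2 were called, Egr1 lower and Arc higher. In the same test 8.70% of all tested genes were called, 3.32% higher and 5.38% lower, beside 2, 1 and 1 of the 10. With treatment as the only term, edgeR called 0 of the 18277 genes (0%) and 0 of the 10, with 2089 genes at an unadjusted p-value under 0.05, 1 of them among the 10 (Egr1), and a smallest adjusted p-value of 0.0581. The calls of Egr1 and Arc therefore rest on the pairing of the cultures. With the block kept, DESeq2 and limma-voom also called Egr1 and Arc and none of the others, with no adjusted p-value from DESeq2 for Npas4.

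The AP-1 proteins encoded by Fos, Fosb and Junb pair with each other or with other Jun proteins to bind DNA. Fos was measured at 24.6, 38.3 and 19.4 CPM in vehicle replicates 1, 2 and 3, and at 35.9, 44.3 and 21.2 CPM in the treated replicates. The treated culture was above its same-numbered partner each time, but the groups overlapped because the cultures numbered 2 were high and those numbered 3 low under either condition. The fitted log2 fold change of Fos was 0.29 (SE 0.09) with an adjusted p-value of 0.0538, outside the threshold for p as well as that for fold. It was 0.17 (adjusted p = 0.318) without the cultures numbered 1 and 0.39 (adjusted p = 0.0268) without those numbered 3. Fosb, which is less abundant, had 1.77, 3.93 and 6.28 CPM with vehicle and 2.32, 4.24 and 6.29 CPM after treatment. Its pairs differed by 0.38, 0.11 and 0.00 on the log2 scale, and its fold change of 0.14 (SE 0.15, adjusted p = 0.564) did not pass. Junb stood at 46.1, 74.3 and 89.9 CPM with vehicle and at 66.1, 75.1 and 84.2 CPM after treatment. Only the first pair of Junb was clearly apart, and its fold change of 0.14 (SE 0.10, adjusted p = 0.372) became -0.04 without the cultures numbered 1.

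The zinc finger factors Egr1 and Egr3 bind GC-rich elements in the promoters of growth factor and synaptic genes. Egr1, on chromosome 18 of mm10 (34859823 to 34864984, plus strand), was measured at 142, 127 and 158 CPM in vehicle replicates 1, 2 and 3, and at 96.2, 101 and 99.5 CPM in the treated replicates. The groups did not overlap, and the treated cultures lay closer together (SD 2.49 CPM) than the vehicle cultures (SD 15.2 CPM). Egr1 was the only one of the 10 genes with groups that did not overlap, against 18.0% of all tested genes. Its log2 fold change was -0.52 (SE 0.07, adjusted p = 0.00159), or -0.53 (SE 0.10, adjusted p = 0.233) with treatment as the only term. The fold lies just past the threshold of 0.5, and the call was lost with a fold change of -0.49 under upper-quartile scaling, -0.48 after ComBat-seq, -0.497 without the cultures numbered 1 and -0.43 without those numbered 3, with adjusted p-values from 0.00236 to 0.0157 in these blocked or batch-adjusted fits. Egr3 gave 21.9, 30.2 and 20.5 CPM with vehicle and 23.6, 30.3 and 14.3 CPM after treatment. Its groups overlapped, only the third pair differed by more than 0.5 on the log2 scale, and the fold change of -0.13 (SE 0.12, adjusted p = 0.477) became 0.07 without that pair.

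Nr4a1 encodes an orphan nuclear receptor, and Npas4 a transcription factor that in neurons responds to calcium entry rather than to growth factors. Nr4a1 was at 47.4, 37.7 and 25.6 CPM with vehicle and at 42.3, 42.8 and 19.9 CPM after treatment. The cultures numbered 3 were the lowest under either condition, and the pairs went in different directions. The fold change of Nr4a1 was -0.11 (SE 0.10, adjusted p = 0.483) and became 0.02 without the cultures numbered 3. Npas4 was counted 26, 39 and 69 times with vehicle and 31, 25 and 35 times after treatment, which is 0.649, 0.907 and 1.23 CPM against 0.835, 0.659 and 0.888 CPM. Its fold change of -0.22 had the largest standard error of the 10 genes (0.28, adjusted p = 0.631), and it ran from -0.46 without the cultures numbered 1 to -0.04 without those numbered 3.

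Arc, on chromosome 15 (74669083 to 74672570, minus strand), encodes a cytoskeleton-associated protein that drives removal of AMPA receptors from synapses and is the effector among these genes. It was measured at 5.47, 9.96 and 21.5 CPM in vehicle replicates 1, 2 and 3, and at 10.3, 12.5 and 29.1 CPM in the treated replicates. Each treated culture was above its partner, while the groups overlapped because the cultures numbered 3 were well above the others. The log2 fold change was 0.55 (SE 0.12, adjusted p = 0.0133), a 1.46-fold higher level. With treatment as the only term it was 0.49 (SE 0.57, adjusted p = 0.808). The first pair differed most, by 0.91 on the log2 scale against 0.33 and 0.44, and without the cultures numbered 1 Arc was no longer called, at 0.39 (adjusted p = 0.0823).

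Ier2, a nuclear protein of the primary response, and Dusp1, a phosphatase that inactivates MAP kinases and so limits the response, completed the group. Ier2 was the most even of the 10 genes, at 17.6, 22.1 and 20.5 CPM with vehicle and 19.0, 23.2 and 18.7 CPM after treatment, with a fold change of 0.02 (SE 0.09, adjusted p = 0.922). Dusp1 was at 98.0, 87.0 and 182 CPM with vehicle and at 72.1, 83.0 and 176 CPM after treatment. The cultures numbered 3 stood apart for this gene too, and each treated culture was below its partner, by 0.44 on the log2 scale in the first pair and by 0.07 and 0.05 in the others. The fold change of Dusp1 was -0.19 (SE 0.08, adjusted p = 0.142), which did not pass, and -0.06 without the cultures numbered 1. Among the 10 genes, the treated culture was higher in all 3 pairs for 3 (Fos, Fosb and Arc) and lower in all 3 for 2 (Egr1 and Dusp1), where 25.2% and 28.7% of all tested genes did so. The median log2 fold change of the 10 was -0.05, against -0.01 over all tested genes, and 0.09 without the cultures numbered 3. In the annotation used here the gene span of Prdx2 overlaps that of Junb by 351 bases on the opposite strand, and Ergic1 that of Dusp1 by 640. These are overlaps of whole spans, introns included, in an annotation that may differ from the one used for counting. Whether reads there were counted for Junb or Dusp1 is not known, and the strand setting of the counting is not given.

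**Figure D3:**
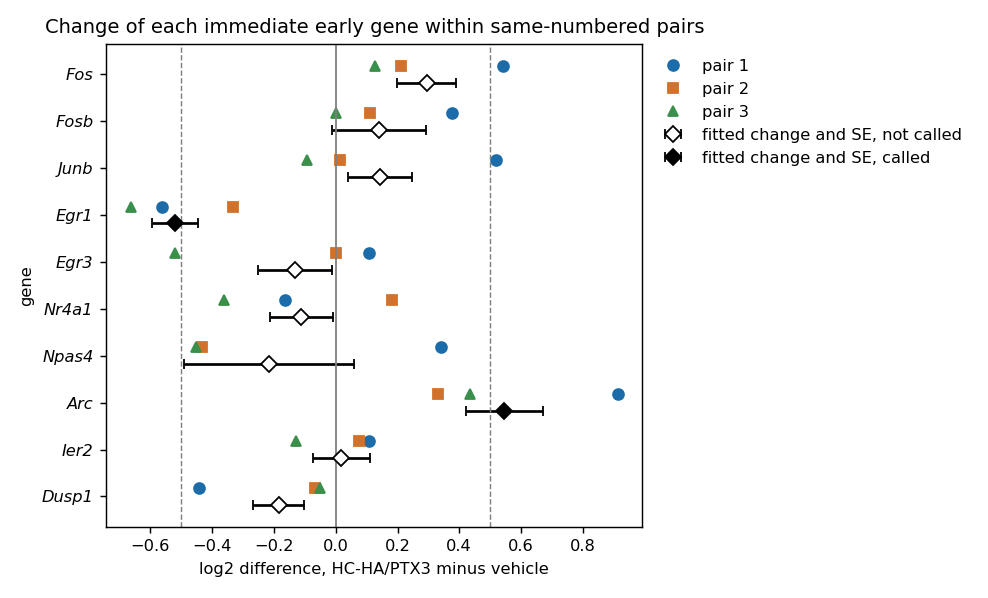
Log2 difference between HC-HA/PTX3 and vehicle for each gene, with coloured symbols for the 3 same-numbered pairs, diamonds with SE bars for the fitted change (filled where called) and dashed lines at the fold threshold of 0.5. Egr1 (-0.52) and Arc (0.55) lie past the lines with all 3 pairs on 1 side, and Junb, Egr3, Nr4a1, Npas4 and Ier2 have pairs on both sides of 0.

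How the levels varied over the 6 cultures was described by dividing the variance of log2 CPM between the replicate number, the treatment and what was left. The replicate number held 97.2% of the variance of Fosb, 93.9% of Dusp1, 92.1% of Nr4a1, 85.5% of Fos, 84.5% of Arc and 51.6% of Npas4, where the median over all tested genes was 59.0%. Egr1 was the exception among the 10, with 4.70% between replicate numbers and 89.0% between treatments. Only 362 of the 18277 tested genes, 1.98%, had a share between treatments at least as high, and the median was 17.7%. The cultures numbered 3, where the satellite glia markers were lowest, held the highest Arc, Fosb, Dusp1, Junb and Npas4 and the lowest Fos, Nr4a1 and Egr3 of either group. The part of cell composition in these differences between replicate numbers was not tested.

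**Figure D4:**
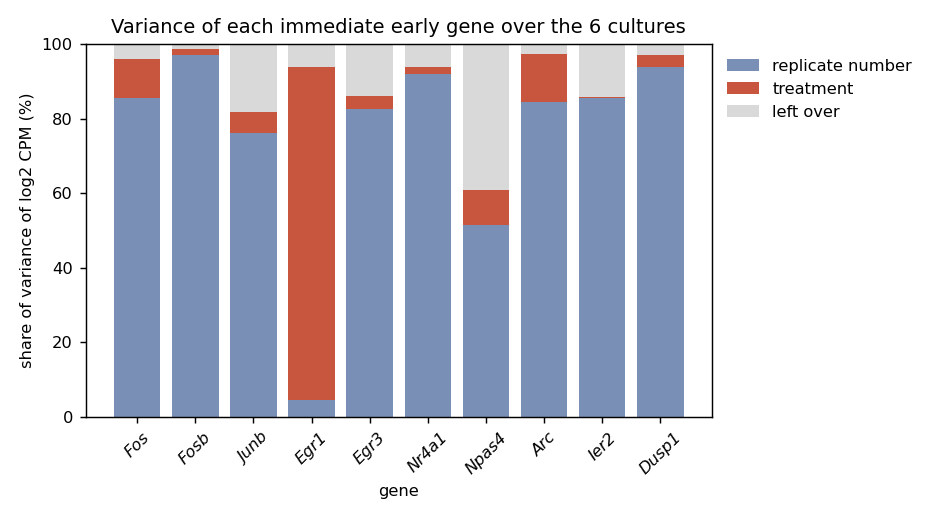
Share of the variance of log2 CPM over the 6 cultures between replicate numbers, between treatments and left over, in percent, stacked to 100 for each gene. For Egr1 89.0% lies between treatments, and for each of the other 9 genes the replicate number holds at least 51.6%.

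Promoters of 6 of the 10 genes (Fos, Fosb, Junb, Npas4, Nr4a1 and Dusp1) were found in the RefSeq promoter table of GRCm38.p6, which gives 250 bases before and 50 bases after the start. Egr1, Egr3, Arc and Ier2 were not matched. The short form of the cyclic AMP response element bound by CREB, TGACG or its complement CGTCA, was present in all 6, against 20.8% of the 32851 promoters in the table. It was also present in 75% of the other rapid-response regulators, 66.7% of the later effectors and 55.6% of the heat shock genes with a promoter in the table. Shares were 41.2% for feedback inhibitors, 39.1% for upstream genes, 33.3% for other AP-1 subunits and 26.7% for SRF cytoskeletal targets. Genes of a list were counted if any of their promoters held a site, whereas the share of all is over single promoters. The full palindromic element, TGACGTCA, which contains the short form on each strand, was present in 1 of the 6, Dusp1, in 1.79% of all promoters and in 20% of the later effectors. The CArG box bound by SRF was found in none of the 6 within this window and in 1.63% of all promoters. Bases further upstream and the unmatched genes were not searched, so absence here does not mean that a gene lacks the box. Sequences are shown for Nr4a1 and Dusp1, which hold the most short sites, and for Fos, the nearest to the p threshold among the genes not called, 5′ to 3′ on the strand of the gene with these sites in capitals. Fos (chr12:85473640-85473939, plus strand) has 2 short sites, which begin 129 and 66 bases before the start. Nr4a1 (chr15:101266596-101266895, plus strand) has 4 and Dusp1 (chr17:26508423-26508722, minus strand) has 3, of which 2 overlap within the full element. Each match describes letters in this window only.
Fos: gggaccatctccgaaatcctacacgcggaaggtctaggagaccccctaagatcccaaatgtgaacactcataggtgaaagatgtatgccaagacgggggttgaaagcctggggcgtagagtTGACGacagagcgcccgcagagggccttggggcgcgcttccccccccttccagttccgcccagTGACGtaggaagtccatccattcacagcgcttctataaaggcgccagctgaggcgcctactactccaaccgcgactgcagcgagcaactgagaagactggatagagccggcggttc
Nr4a1: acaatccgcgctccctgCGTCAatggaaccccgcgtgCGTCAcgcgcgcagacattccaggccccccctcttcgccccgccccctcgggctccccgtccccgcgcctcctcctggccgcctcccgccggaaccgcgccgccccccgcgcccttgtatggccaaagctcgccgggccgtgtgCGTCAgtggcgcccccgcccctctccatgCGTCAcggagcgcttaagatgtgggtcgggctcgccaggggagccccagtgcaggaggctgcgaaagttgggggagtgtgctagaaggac
Dusp1: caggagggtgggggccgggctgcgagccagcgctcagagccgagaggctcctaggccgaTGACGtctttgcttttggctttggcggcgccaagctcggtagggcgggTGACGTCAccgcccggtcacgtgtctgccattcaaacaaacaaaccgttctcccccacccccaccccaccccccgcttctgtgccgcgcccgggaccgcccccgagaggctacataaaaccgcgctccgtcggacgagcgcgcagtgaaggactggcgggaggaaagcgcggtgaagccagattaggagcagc

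Other genes of the same response were examined as 7 lists, which were chosen with earlier results of these data known. Of the 128 genes tested in them 17 were called (13.3%, against 8.70% of all tested genes), 4 higher and 13 lower, and 10 of the 17 were SRF cytoskeletal targets. Of all tested genes 3.32% were called higher and 5.38% lower, which applies to each list. With treatment as the only term edgeR called 0 of the 128 and 13 had an unadjusted p-value under 0.05, against 2089 of all 18277. Among 6 other AP-1 subunits 1 was called higher and 0 lower, with a list median of 0.17. This was Fosl1, which encodes Fra-1, at 35.9, 57.5 and 86.5 CPM with vehicle and 62.4, 81.0 and 118 CPM after treatment. It was higher in each pair, and the fitted change was 0.58 (SE 0.08, adjusted p = 0.00145), or 0.54 (adjusted p = 0.624) without the block. Without the cultures numbered 1 Fosl1 was not called, at 0.47 (adjusted p = 0.0114). The injury-induced factor Atf3 had a fold change of 0.23 (adjusted p = 0.0304, and from 0.0639 to 0.158 with a pair left out), short of the fold threshold, and Jund (0.12) and Fosl2 (-0.15) did not pass for p (adjusted p = 0.193 and 0.185).

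Of 20 other rapid-response transcription regulators, 1 was called higher and 0 lower, with a median of 0.05 that ran from -0.001 without the cultures numbered 1 to 0.17 without those numbered 3. The called gene was the antiproliferative coregulator Btg2, at 14.1 ± 2.57 CPM with vehicle and 20.4 ± 4.85 CPM after treatment (SD, n = 3 each), a change of 0.52 (SE 0.12, adjusted p = 0.0144). It lost the call without the cultures numbered 1 (0.42) or 3 (0.46) and after ComBat-seq (0.48). The clock gene Per1 had 0.37 (adjusted p = 0.00807, or 0.0591 without the cultures numbered 1) and the clock repressor Bhlhe40 -0.37 (adjusted p = 0.00521), each with all 3 pairs on 1 side but below the fold threshold. Egr2, the family member that directs myelination in Schwann cells, was at 74.4, 77.8 and 37.6 CPM with vehicle and 56.0, 71.8 and 22.0 CPM after treatment. It was lower in each pair, as Egr1 was, with a fold change of -0.42 (SE 0.11, adjusted p = 0.0207) that did not reach the fold threshold. It was -0.25 (adjusted p = 0.113) without the cultures numbered 3 and -0.43 (adjusted p = 0.0924) without those numbered 1. Without those numbered 2 it was called, at -0.59 (adjusted p = 0.0194).

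The 22 feedback inhibitors had 0 genes called higher and 1 lower, with a median of -0.06 (-0.12 without the cultures numbered 2). The direction of these calls depended on the setting, with 1 higher and 1 lower under upper-quartile scaling and DESeq2, 1 higher and 2 lower with all genes of at least 1 count tested, and 1 higher and 0 lower after ComBat-seq and without the cultures numbered 3. Leaving out the cultures numbered 1 or 2 gave 0 higher and 3 lower. Dusp14 had the highest fold change of the list and missed the p threshold (0.57, SE 0.18, adjusted p = 0.0529). The called gene was Spry1, an inhibitor of receptor tyrosine kinase signalling, with a fold change of -0.64 (SE 0.18, adjusted p = 0.0325), which was lost without the cultures numbered 1 (-0.56) or 3 (-0.42) and after ComBat-seq (-0.56, adjusted p = 0.0508). Nab2, a corepressor that binds EGR proteins and is itself an EGR target, was at 31.1, 37.1 and 25.4 CPM with vehicle and at 23.9, 29.6 and 15.0 CPM after treatment. Its fold change of -0.49 (SE 0.10, adjusted p = 0.00865) lay just inside the fold threshold, as did that of Errfi1, an inhibitor of the EGF receptor, at -0.47 (adjusted p = 0.00336). Both were called without the cultures numbered 1 (-0.54 and -0.53) or 2 (-0.57 and -0.53), and Nab2 also with all genes of at least 1 count tested (-0.502). They were -0.34 (adjusted p = 0.0519) and -0.34 (adjusted p = 0.0186) without the cultures numbered 3. The mRNA decay factor Zfp36l2 (-0.42) and the phosphatase gene Dusp8 (-0.32) passed for p alone (adjusted p = 0.00748 and 0.0217). Zfp36l2 was -0.27 without the cultures numbered 3, and Dusp8 missed the p threshold with any pair left out (adjusted p from 0.0515 to 0.198).

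Among 20 later activity-regulated effectors 2 were called higher and 1 lower (median 0.13). The growth arrest gene Gadd45b was at 11.5, 20.3 and 58.6 CPM with vehicle and 20.5, 29.9 and 71.1 CPM after treatment, so that its cultures numbered 3 were the highest, as for Arc. It had a fold change of 0.54 (SE 0.10, adjusted p = 0.00614), and the polo-like kinase gene Plk2 one of 0.51 (SE 0.11, adjusted p = 0.00885). Ptgs2, which encodes the prostaglandin-producing enzyme cyclooxygenase-2, went the other way, from 40.5 ± 15.8 to 26.1 ± 8.87 CPM (SD, n = 3 each), with a fold change of -0.62 (SE 0.12, adjusted p = 0.00665). Without the cultures numbered 1, Gadd45b (0.42) and Plk2 (0.33) lost their calls, and without those numbered 3 Ptgs2 did (-0.45). Gadd45b was also not called by limma-voom (0.48), nor Plk2 after ComBat-seq (0.49) or with all genes of at least 1 count tested (0.49). The secretogranin gene Scg2 was at 494 ± 23.4 CPM with vehicle and 614 ± 38.3 CPM after treatment, in groups that did not overlap, but its fold change of 0.31 was below the threshold (adjusted p = 0.00809). Gadd45g, at 0.42 (adjusted p = 0.00472), was called without the cultures numbered 1 (0.51). Without those numbered 2 both missed the p threshold (adjusted p = 0.0926 for Scg2 and 0.0518 for Gadd45g).

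Upstream of the immediate early genes, 0 of 30 kinases and transcription factors were called higher and 1 lower, with a median of -0.09. The 2 neuronal isoforms of CaM kinase II differed in direction. Camk2b was called lower, at 31.8, 26.1 and 36.9 CPM with vehicle and 21.9, 17.2 and 27.5 CPM after treatment (-0.52, SE 0.08, adjusted p = 0.00273), a call lost under upper-quartile scaling (-0.48) and without the cultures numbered 2 (-0.48). Camk2a stood at 84.0 ± 19.8 CPM with vehicle and 117 ± 32.6 CPM after treatment (SD, n = 3 each), with a fold change of 0.46 (adjusted p = 0.00129) below the fold threshold, or 0.51 and called without the cultures numbered 3. The gene of SRF itself had -0.36 (adjusted p = 0.0184) and the ribosomal S6 kinase gene Rps6ka2 0.26 (adjusted p = 0.0196), neither of them called. Srf was -0.23 (adjusted p = 0.171) without the cultures numbered 3 and -0.40 (adjusted p = 0.0568) without those numbered 1. Rps6ka2 missed the p threshold with any pair left out (adjusted p from 0.0515 to 0.0825).

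The list that stood furthest from 0 was that of the SRF cytoskeletal targets, genes taken as targets of SRF and its actin-sensing coactivators. Control of these genes by SRF was not tested. Of 19 tested, 10 were called lower (52.6%, against 5.38% of all tested genes) and 0 higher. Because the list was chosen with earlier results of these data known, this contrast describes the list and is not a test of it. All 19 had a fold change below 0, as did 9348 of the 18277 tested genes, with a median of -0.75 against -0.01 over all genes. Under upper-quartile scaling 9 were called lower, and the median was -0.72. DESeq2 called 6 lower, and without the cultures numbered 1 edgeR called 6 lower, with 18 of the 19 below 0 and a median of -0.63. The matricellular gene Cyr61 was at 136, 147 and 219 CPM in vehicle replicates 1, 2 and 3, and at 63.2, 101 and 88.1 CPM in the treated replicates. The groups did not overlap, and the fold change was -0.99 (SE 0.12, adjusted p = 0.000938). Myl9, a myosin light chain gene, was at 18.3, 20.7 and 17.2 CPM with vehicle and 6.95, 14.7 and 4.24 CPM after treatment (-1.26, SE 0.22, adjusted p = 0.00431). Cnn2, which encodes the actin-binding protein calponin 2, was at 72.0, 77.3 and 59.5 CPM against 40.8, 57.3 and 19.2 CPM (-0.95, SE 0.17, adjusted p = 0.00472). Both genes had groups that did not overlap, with the smallest difference in the second pair. Without the cultures numbered 3 the changes were smaller, -0.61 for Cnn2 and -0.90 for Myl9, and still called. Zyx, the gene of the focal adhesion protein zyxin, was at 169 ± 5.59 and 123 ± 8.33 CPM (SD, n = 3 each) in groups that did not overlap, with a fold change of -0.46 (adjusted p = 0.00131) just inside the threshold. Without the block 0 of the 19 were called and 5 had an unadjusted p-value under 0.05, with adjusted p-values of 0.253 for Cyr61, 0.385 for Myl9 and 0.446 for Cnn2.

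Markers of dividing cells and 2 collagen genes among the fibroblast markers were lower in the treated cultures as well. The 5 fibroblast markers, led by Col3a1, summed to 1487, 1572 and 643 CPM in vehicle replicates 1, 2 and 3, and to 761, 1040 and 234 CPM in the treated replicates, and 2 of the 5 were called lower (Col1a1 and Col3a1). The other 3, Dcn (-0.09), Lum (-0.31) and Pdgfra (-0.25), were not called (adjusted p = 0.327, 0.185 and 0.0717). The 4 markers of dividing cells, led by Mki67, summed to 671, 461 and 205 CPM with vehicle and to 220, 228 and 33.2 CPM after treatment, and all 4 were called lower. None of these markers was at 0 in any culture. Their part in the lower levels of Egr1 and of the SRF targets was not tested.

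**Figure D5:**
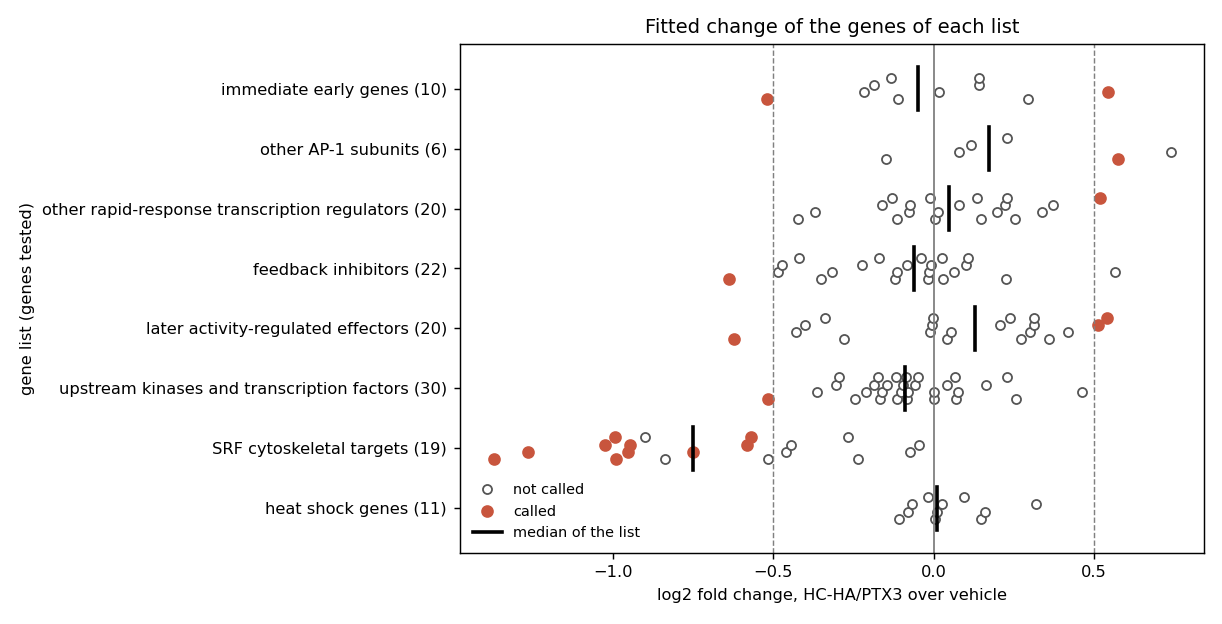
Fitted log2 fold change of each tested gene by list, filled where called, with a black bar for the median of the list and dashed lines at the fold threshold of 0.5. All 19 SRF cytoskeletal targets lie below 0 around a median of -0.75, and the other lists have medians between -0.09 and 0.17.

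The CArG box was present in the promoters of 5 of the 15 SRF cytoskeletal targets that the table holds, 33.3%, against 1.63% of all promoters. Besides Myl9 and Cnn2 these were Fhl2 (-0.75, adjusted p = 0.00767, called lower), and Actg1 (-0.05, adjusted p = 0.675) and Vcl (-0.27, adjusted p = 0.0259), which were not called. A gene was counted if any of its promoters held a box, whereas the share of all is over single promoters. The sequences of Myl9 (chr2:156775214-156775513, plus strand) and Cnn2 (chr10:79988350-79988649, plus strand) are shown, each with 1 such box in capitals, which begins 161 bases before the start in Myl9 and 56 bases before it in Cnn2. Cyr61 and Zyx had none in this window.
Myl9: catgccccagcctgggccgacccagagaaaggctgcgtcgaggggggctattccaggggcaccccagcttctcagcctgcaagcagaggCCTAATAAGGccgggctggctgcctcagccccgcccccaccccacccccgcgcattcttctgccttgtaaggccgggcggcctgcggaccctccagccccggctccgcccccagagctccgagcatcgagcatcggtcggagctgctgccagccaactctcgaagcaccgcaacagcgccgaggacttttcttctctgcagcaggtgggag
Cnn2: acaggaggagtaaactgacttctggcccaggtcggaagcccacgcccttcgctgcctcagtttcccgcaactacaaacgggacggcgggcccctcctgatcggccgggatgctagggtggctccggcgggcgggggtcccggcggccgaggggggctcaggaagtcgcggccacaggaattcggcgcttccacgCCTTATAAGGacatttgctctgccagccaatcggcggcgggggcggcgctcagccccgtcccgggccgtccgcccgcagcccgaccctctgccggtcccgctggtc

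None of the 11 tested heat shock genes, which report protein damage and share some inducers with the immediate early genes, was called by edgeR, DESeq2 or limma-voom, and 2 of them had an unadjusted p-value under 0.05 in edgeR. The cochaperone gene Dnajb1 was at 39.5, 44.3 and 48.3 CPM with vehicle and 58.8, 42.0 and 66.5 CPM after treatment (0.32, SE 0.11, adjusted p = 0.0701). The other 3 with the smallest p-values, Hspb1, Hsp90aa1 and Hsph1, had fold changes of 0.16, 0.15 and 0.10, and the median of the list was 0.01, or from -0.01 to 0.13 with a pair left out. Without the cultures numbered 2, edgeR called 1 of the 11 higher, Dnajb1 (0.51, adjusted p = 0.0159).

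The genes whose pattern was most like that of Fos were sought among 13400 tested genes outside all lists, by the root mean square difference between centred log2 CPM over the 6 cultures. The 3 nearest were Gja4, the gene of the gap junction protein connexin-37, at 0.0924, Nfatc4, a calcineurin-regulated transcription factor gene, at 0.122 and LOC105244251 at 0.141. Gja4 stood above its own mean in treated replicates 1 and 2 (0.33 and 0.60) and in vehicle replicate 2 (0.40) and below it in the other cultures, the same order of signs as Fos. The mean of the 10 immediate early genes lay nearest to Capn10 (0.0291), Ttc27 (0.0298) and Fem1a (0.0320), whose levels were lowest in vehicle replicate 1. For example, Capn10 was 0.35 below its mean there and 0.29 above it in vehicle replicate 3. These are descriptions of 6 cultures and carry no test.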

How the data were processed

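Mouse DRG cultures were measured by RNA-seq of ribosomal RNA-depleted total RNA. The authors aligned read pairs to mm10 and counted them per gene with featureCounts of the Subread package, and the deposited values are raw counts, whole numbers per gene and culture that were neither normalized nor pooled. The methods name HISAT2 while the file headers name STAR, and the strand setting is not given in the sources used here. Groups and replicate numbers came from the sample labels. The 10 min arm of the study was not analysed here.

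The counts were analysed in R 4.3.3. Genes passing filterByExpr of edgeR 4.0.16, with treatment as the group, were scaled by TMM and tested with glmQLFit and glmQLFTest. The replicate number was a block, in place of the batch term named in the methods, whose batches the labels do not give. p-values were adjusted over all 18277 genes tested. Log2 CPM used a prior count of 2. Across genes, deviations from the group means correlated at 0.631, 0.536 and 0.774 between same-numbered cultures and at -0.613 to 0.148 between others, and all 3 pairs exceeded the limit of 0.1 for treating the numbers as pairs. Within a group, chi-square per degree of freedom between libraries was 34.1 to 120, where counting error alone gives about 1, so none was a duplicate. In these libraries 1 CPM stood for 37.1 to 56.0 counts, and a gene with no count could have a level of up to 0.0808 CPM (3 counts), which covers counting error only.

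Alternatives were the fit without the block, a minimum of 1 count in any culture or 10 in every culture, upper-quartile scaling, DESeq2 1.42.0, limma-voom (limma 3.58.1), ComBat-seq (sva 3.50.0) followed by limma, no fold threshold, and each pair of same-numbered cultures left out. Exon lengths, positions and overlaps are from GENCODE M21, matched by symbol for 10 of 10 genes. Other genes were named by rule: the 4 with the smallest p-value of each list, further called genes where at most 5 were called, the 3 genes nearest to Fos and to the mean of the 10 (outside all lists, mean log2 CPM of 1 or more), and the most abundant marker of each list. Col1a1, Dcn, Lum, Pdgfra, Dusp14, Fhl2, Actg1 and Vcl were named after their values were seen. The immediate early genes and the gene and marker lists were chosen with earlier results of these data known.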

Additional observations from a re-analysis of the deposited data

How the results depend on the processing

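Without the replicate block edgeR called 0 genes in place of 1591, 0 of the 10 immediate early genes in place of 2 and 0 genes of the 7 lists in place of 17. Without a fold threshold the counts were 3505 for all genes, 2 for the immediate early genes and 47 for the lists. The immediate early count was 1 under upper-quartile scaling and after ComBat-seq, and Arc was the gene called. With each pair of cultures left out in turn, the counts ran from 878 (without replicate 1) to 1571 for all genes, from 0 (without replicate 1) to 2 for the immediate early genes and from 12 (without replicate 1) to 22 for the lists, fits with fewer samples. The share of lower calls, 61.8%, was 55.8% under upper-quartile scaling, 70.3% with DESeq2, 52.4% after ComBat-seq and 71.8% without replicate 1. Directions turned only where changes were small and not called: with each pair left out, Junb ran from -0.0374 (without replicate 1) to 0.281, Egr3 from -0.250 to 0.0706 (without replicate 3), Nr4a1 from -0.266 to 0.0240 (without replicate 3) and Ier2 from -0.0241 (without replicate 1; -0.0156 without replicate 2) to 0.107, and Ier2 was -0.0004 with all genes of at least 1 count. The cause was not tested. Over 100 alternative values of the 10 genes, 87 kept their direction and were called or not called as before, 7 (of Egr1 and Arc) lost the call and 6 turned. Of 30 named genes of the other lists 0 turned. None of the 10 called among them kept the call without the block, and 14 of the others were not called in any alternative that kept the fold threshold. The adjusted p-value of Fos lay under 0.05 in 4 alternatives, with folds of 0.28 to 0.39 below the threshold, and was 0.318 without replicate 1, with a fold of 0.17. That of Dusp1 was 0.0482 with all genes of at least 1 count. Depth limits Npas4 most, with 25 to 69 counts.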
